A study of Homo sapiens with 7 samples.

Results

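Imprinted genes are expressed mainly from the maternal or mainly from the paternal copy. The 30 genes described here, of 38170 protein-coding and long noncoding RefSeq genes on chromosomes 1 to 22 and X, were taken by name from a list of established imprinted genes, and each was measured over its RefSeq span and 5 kb either side. The parental copies are told apart by DNA methylation laid down in the germline at imprinting control regions and kept through later cell divisions. 5-Hydroxymethylcytosine (5hmC) is made from that methylation by the TET enzymes and is abundant over the bodies of active genes in neural cells. Some imprinted genes act in growth (IGF2, CDKN1C, GRB10), others in brain function and behaviour (UBE3A, MAGEL2, NDN), and several are long noncoding RNAs that silence neighbours on the same chromosome (KCNQ1OT1).

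The material was SH-SY5Y, an established human neuroblastoma line. Control cells carried a lentiviral control hairpin (shNC) and knockdown cells a hairpin against the RNA- and DNA-binding protein TDP-43 (shTDP43), in the pLVX-U6-shRNA1 vector. Knockdown cells are described as stable and puromycin-selected. 5hmC-bearing fragments were labelled, biotinylated, pulled down and sequenced (hMe-Seal), giving 3 control and 3 knockdown libraries, each with its own list of called peaks. The labels do not say whether replicates came from separate infections or cultures, and any p-value here reflects how far these samples scatter, a scatter that may be purely technical. Values of single libraries follow in replicate order within each group.

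The lists held 117949 to 157157 peaks covering 80.8 to 111 Mb in control and 119820 to 142605 peaks covering 78.2 to 98.8 Mb in knockdown libraries. Control 2 had the most peaks. Read totals were not among the sources used here. Marker genes of the noradrenergic state of neuroblastoma (13 genes) had a median control coverage of 18.5%, those of its mesenchymal state (11 genes) 3.22%, and all genes 2.10%. Of these markers CHGA alone was called, with 16.3% ± 1.77 in control and 38.8% ± 1.86 in knockdown libraries (1.32, SE 0.11, adjusted p = 0.0274 in limma). The DNA came from whole cultures and both parental alleles together, so a change in a share of cells and a change on 1 allele cannot be told apart, and imprinting itself is not read out by these files.

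Peaks were rare at the promoter windows that could be matched, of imprinted genes as of all genes. RefSeq promoter windows (GRCh38.p14, the build of the files, 250 bases before to 50 after a start) were matched for 20 of the 30 genes, with 49 windows in all, several of them overlapping. No window was matched for DLK1, IGF2, CDKN1C, NNAT, PEG10, SGCE, KCNQ1OT1, PHLDA2, PEG3 and ZIM2, so their starts are not counted here. The low-coordinate end of the DLK1 span lies inside a merged region found in all 6 lists (100724853 to 100733629). A peak lay on 2 of the 49 matched windows, in all 6 libraries each. Among all 34961 promoter windows, 13.4% had a peak in at least 1 library, 5.15% in all 6, 0.529% in the controls only and 0.0887% in the knockdowns only. The bases before 5 starts are shown, 5′ to 3′ on the gene's strand, with CG dinucleotides, the main site of 5hmC, in capitals. RTL1 and L3MBTL1 are shown because they held the peaks, MEG3 and PLAGL1 because a region that differed in its calls lay just upstream, and SNRPN because its start, shared with SNURF, had no peak within its whole window.
RTL1: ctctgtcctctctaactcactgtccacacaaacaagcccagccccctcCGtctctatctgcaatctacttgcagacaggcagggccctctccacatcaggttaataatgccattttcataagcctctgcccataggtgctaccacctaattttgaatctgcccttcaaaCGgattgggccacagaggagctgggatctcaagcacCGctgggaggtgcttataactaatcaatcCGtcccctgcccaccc
L3MBTL1: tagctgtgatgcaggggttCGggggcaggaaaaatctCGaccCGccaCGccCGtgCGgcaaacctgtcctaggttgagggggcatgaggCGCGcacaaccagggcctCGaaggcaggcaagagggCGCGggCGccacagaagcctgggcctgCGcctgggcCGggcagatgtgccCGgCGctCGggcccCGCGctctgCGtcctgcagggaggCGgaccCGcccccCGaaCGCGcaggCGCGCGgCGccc
MEG3: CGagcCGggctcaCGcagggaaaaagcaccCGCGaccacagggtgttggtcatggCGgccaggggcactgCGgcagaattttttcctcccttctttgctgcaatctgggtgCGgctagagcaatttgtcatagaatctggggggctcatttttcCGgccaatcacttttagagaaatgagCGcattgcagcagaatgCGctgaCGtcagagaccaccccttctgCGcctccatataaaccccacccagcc
PLAGL1: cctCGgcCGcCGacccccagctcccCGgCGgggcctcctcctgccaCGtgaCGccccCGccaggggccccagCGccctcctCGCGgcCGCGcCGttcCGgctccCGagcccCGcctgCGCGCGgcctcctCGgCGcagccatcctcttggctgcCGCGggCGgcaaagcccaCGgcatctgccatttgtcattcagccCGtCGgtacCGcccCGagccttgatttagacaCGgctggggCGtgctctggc
SNRPN: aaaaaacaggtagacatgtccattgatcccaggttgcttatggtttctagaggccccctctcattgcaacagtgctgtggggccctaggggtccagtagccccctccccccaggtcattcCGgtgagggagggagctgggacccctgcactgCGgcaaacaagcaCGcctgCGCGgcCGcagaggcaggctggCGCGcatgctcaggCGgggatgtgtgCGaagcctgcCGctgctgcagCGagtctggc
These 250 bases are chr14:100903723-100903972 (minus strand, 4 CG) for RTL1, chr20:43507447-43507696 (plus strand, 29 CG) for L3MBTL1 and chr14:100825858-100826107 (plus strand, 13 CG) for MEG3. They are chr6:144008260-144008509 (minus strand, 32 CG) for PLAGL1 and chr15:24954737-24954986 (plus strand, 12 CG) for SNRPN. The median over all promoters was 11 CG in 250 bases. The quartiles were 3 and 23 CG. The peak thus lay below the median but within the quartiles at RTL1, and above the upper quartile at L3MBTL1. Among all windows of 300 bases, those with a peak in all 6 libraries had a median of 7 CG and those without a peak 16. The RTL1 window held 6 CG and the L3MBTL1 window 35. At RTL1, whose window also lies within the span of the neighbouring gene MEG8, every library's peak covered all 300 bases of the window. At L3MBTL1 the peaks covered 300, 198 and 300 bases in controls and 275, 240 and 244 in knockdowns. The hexamer TGCCGC, bound by the imprint-maintaining zinc finger protein ZFP57 when methylated, was searched on both strands, and it contains a CG itself. It occurred in 22 of the 49 member windows (14 of 20 genes), or 44.9%, and in 16.8% of all promoter windows. The member windows were also richer in CG, with a median of 18 against 14 in all windows of 300 bases. Overlapping windows of a gene were counted separately, and the difference in motif share was not tested. The gene windows also held 10 microRNA hairpins, among them MIR675 in H19, MIR335 in MEST and MIR127 in RTL1, and no library had a peak on any of them.

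Coverage ranged from none to over 50% of a gene. DLK1, RTL1, CDKN1C and GNAS were the most covered, while MKRN3, MAGEL2, NDN, SNRPN, PEG3, ZIM2 and DIRAS3 had no peak in any library. All 7 of these are known as expressed mainly from the paternal copy. No peak was called in any library at 28.7% of all genes. Of the 30 genes, 19 lay above the median control coverage of all genes and 6 in the top 10%. Counted by the copy mainly expressed, as background knowledge, 19 paternally expressed genes had a median control coverage of 1.68%, 5 maternally expressed genes 7.86% and 6 genes whose imprinting depends on isoform, tissue or person 7.09%. The 19 include the 7 genes without a peak. Among genes with a mean coverage of at least 1%, the order changed, with medians of 10.8% (10 paternal), 7.86% (5 maternal) and 7.09% (6 others).

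**Figure D1:**
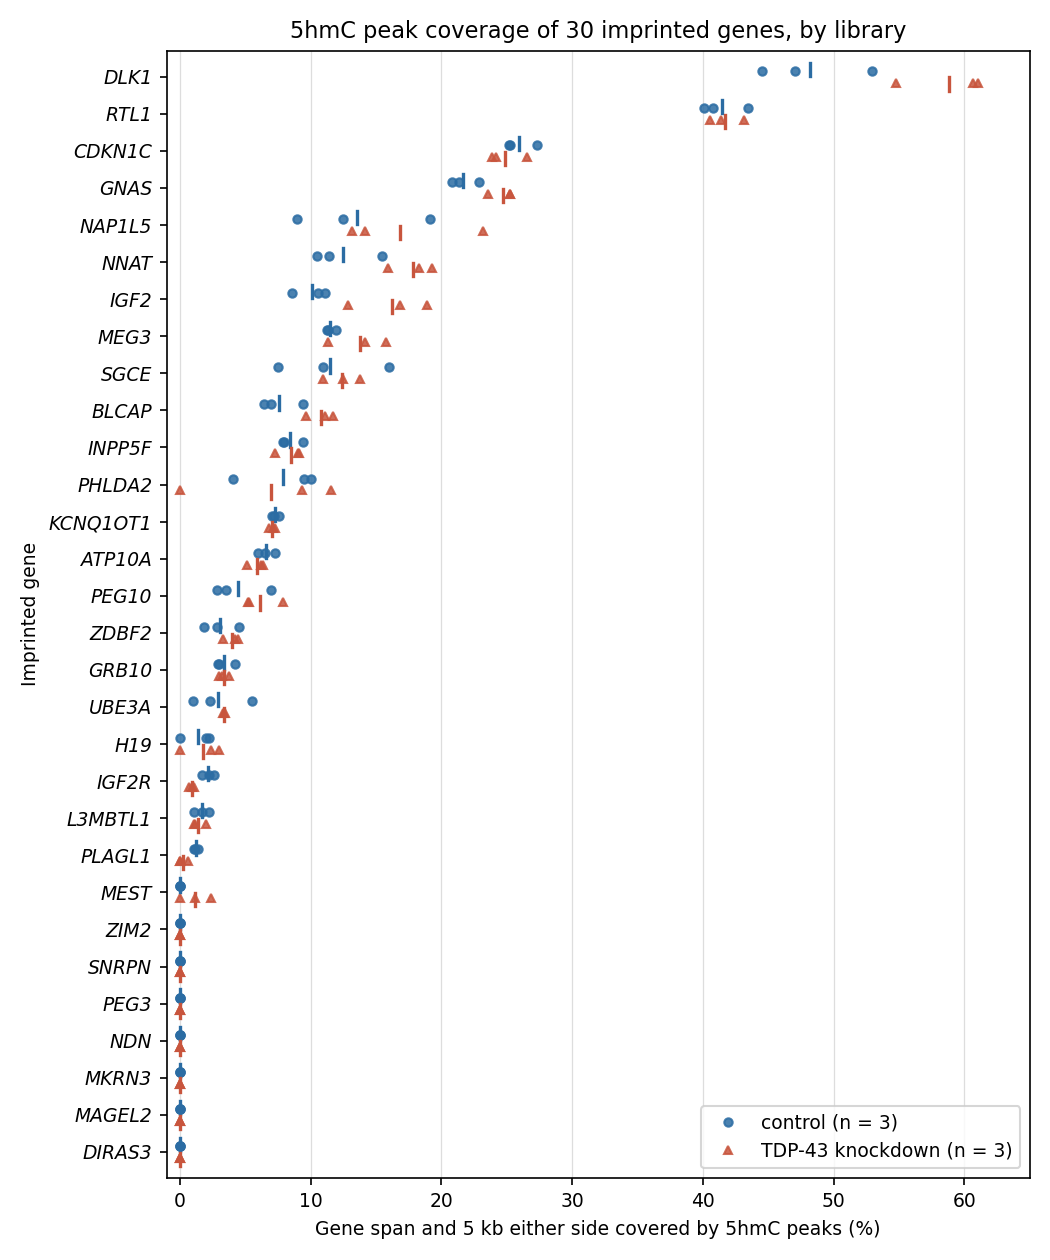
Percent of each imprinted gene's span and 5 kb either side covered by 5hmC peaks (x axis), with circles for the 3 control and triangles for the 3 knockdown libraries and vertical ticks for group means. DLK1 lies at the top with 44.6% to 61.1%, and 7 genes at the bottom have no peak in any library.

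No imprinted gene passed the test between control and knockdown libraries. The test was limma on log2(percent covered + 1), centred per library, over the 22606 genes (59.2% of all) with a mean coverage of at least 1%, and 21 of the 30 imprinted genes entered it. Across all genes, 0.203% were called higher and 0.513% lower in knockdown at an adjusted p under 0.05, and 0 of the 21 in either direction. At an unadjusted p under 0.05 in limma, 6 imprinted genes were higher (IGF2, DLK1, MEG3, GNAS, NNAT and BLCAP) and 1 was lower (IGF2R), where 6.68% and 8.66% of all genes were. Knockdown libraries lay above all controls, before centring, at 5 of the 21 (IGF2, DLK1, GNAS, NNAT and BLCAP) and below all controls at IGF2R, against 3.95% and 18.8% of all genes tested. Of these 5, NNAT lies inside BLCAP and shares its peaks. The median log2 difference of the 21 was 0.27, and 0.012 for all genes, with 17 of 21 above 0 against 51.3% of all genes. It was above 0 in 14 of 21 without centring and in 13 of 21 without control 2. Summed over all 30 windows, 1839.9 kb without double counting, the control mean was 6.27% ± 0.552 and the knockdown mean 6.58% ± 0.427 (SD over 3 libraries a group), a difference within the spread.

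**Figure D2:**
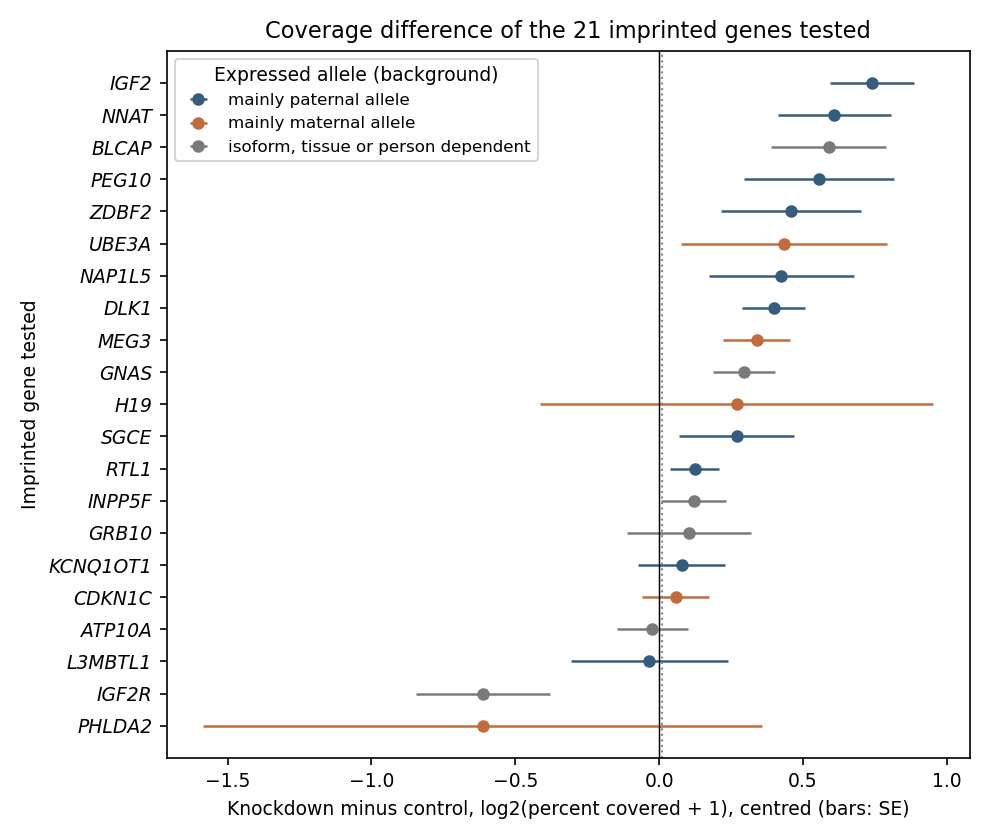
Difference between knockdown and control libraries on the log2(percent covered + 1) scale (x axis, bars show SE) for the 21 imprinted genes tested, coloured by the copy mainly expressed, with a dotted line at the median of all genes, 0.012. IGF2 is highest at 0.74, and IGF2R and PHLDA2 are lowest at -0.61.

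At the H19/IGF2 domain on chromosome 11, the groups did not overlap at IGF2 and overlapped at H19, and that contrast between the genes was not tested. IGF2 encodes a fetal growth factor, and H19 is the noncoding RNA made from the other copy. IGF2 (2129117 to 2149566) was covered over 8.58%, 10.6% and 11.1% in controls and 18.9%, 12.9% and 16.9% in knockdowns. All knockdown values lay above all control values (means 10.1% ± 1.34 and 16.2% ± 3.09, difference of 0.74 on the log2 scale, SE 0.15, adjusted p = 0.0859 in limma). Counted as peaks per 10 kb in place of covered bases, the difference was -0.024 (adjusted p = 0.937 in limma). In the region from 2134940 to 2137296, found in all 6 lists, peaks covered 1707, 1709 and 1648 bp in controls and 2351, 2264 and 2332 bp in knockdowns. A region of 718 bp near the low end of the IGF2 span (2129223 to 2129940) had a peak in all 3 knockdown and in no control lists, with the authors' −log10 q-value between 3.93 and 7.40. H19 (1995176 to 2001266) had 1.99%, 0% and 2.22% in controls and 2.98%, 0% and 2.35% in knockdowns, all from 1 region 8704 bp from its start. That region lies in the flank, and the H19 span itself had no peak in any library. The H19 groups overlapped (difference of 0.27 on the log2 scale, SE 0.68, adjusted p = 0.880 in limma).

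In the neighbouring KCNQ1OT1/CDKN1C domain the groups overlapped at all 3 genes. CDKN1C, a cell cycle inhibitor expressed from the maternal copy, was covered over 25.3%, 25.2% and 27.3% in controls and 26.6%, 23.9% and 24.2% in knockdowns (2883218 to 2885775, difference of 0.057 on the log2 scale, SE 0.12, adjusted p = 0.847 in limma). KCNQ1OT1, the antisense RNA that silences the domain, had 7.28% ± 0.265 and 7.08% ± 0.220 (SD, n = 3 each), with 9 of its 13 merged regions in all 6 lists. PHLDA2, a placental growth restrainer, had 9.48%, 10.0% and 4.09% in controls and 0%, 9.32% and 11.6% in knockdowns, from a single region that knockdown 1 lacked. That region (2923561 to 2924848) lies in the flank, and the PHLDA2 span itself (2928273 to 2929420) had no peak in any library. Its difference of -0.61 (SE 0.97, adjusted p = 0.797 in limma) was 0.61 without knockdown 1. Over the windows of these 3 genes coverage was 9.20% ± 0.0475 and 8.85% ± 0.585, and over the whole span of 331 kb, which includes part of KCNQ1, 14.5% ± 0.655 and 13.3% ± 0.846.

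The DLK1/MEG3 domain on chromosome 14 was the most covered imprinted locus over the gene windows, with 29.5% ± 0.963 in control and 32.8% ± 2.12 in knockdown libraries. Over the whole span between its outer genes it had 21.2% ± 1.02 and 23.6% ± 1.74, slightly below GNAS. DLK1 is a Notch-related ligand of chromaffin and neural progenitors expressed from the paternal copy. DLK1 (100726892 to 100738224) was covered over 52.9%, 47.0% and 44.6% in controls and 60.6%, 54.7% and 61.1% in knockdowns. Every knockdown lay above every control (48.2% ± 4.30 and 58.8% ± 3.54, difference of 0.40 on the log2 scale, SE 0.11, adjusted p = 0.178 in limma). In peaks per 10 kb the difference was 0.026 (adjusted p = 0.943 in limma), with 9, 8 and 7 peaks in controls and 6, 10 and 8 in knockdowns. A single merged region of 8777 bp (100724853 to 100733629) across the low-coordinate end of DLK1 was present in all 6 lists. MEG3, a maternally expressed noncoding RNA, had 11.3%, 11.9% and 11.3% in controls and 15.8%, 11.3% and 14.2% in knockdowns, so that knockdown 2 fell among the controls (difference of 0.34 on the log2 scale, SE 0.12, adjusted p = 0.254 in limma). Its 5 regions found in all 6 lists lay within the gene. A region of 1019 bp (100823624 to 100824642), whose near edge is 1466 bp before the first MEG3 start, had peaks in all 3 knockdown lists and no control list (−log10 q-value 2.81 to 9.84). RTL1, a retrotransposon-derived placental gene, was covered over 40.1%, 43.5% and 40.7% in controls and 43.1%, 40.5% and 41.4% in knockdowns (difference of 0.12 on the log2 scale, SE 0.084, adjusted p = 0.522 in limma). Its strongest peak ranked between the 97.3 and 98.9 percentile of −log10 q in each list. The neighbouring gene MEG8 (100889649 to 100999113) overlaps RTL1. Its span holds the RTL1 regions from 100895500 to 100907834, the one on the RTL1 start among them. Coverage counted for RTL1, also in the median of the paternally expressed genes, thus includes peaks that lie in MEG8 as well.

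**Figure D3:**
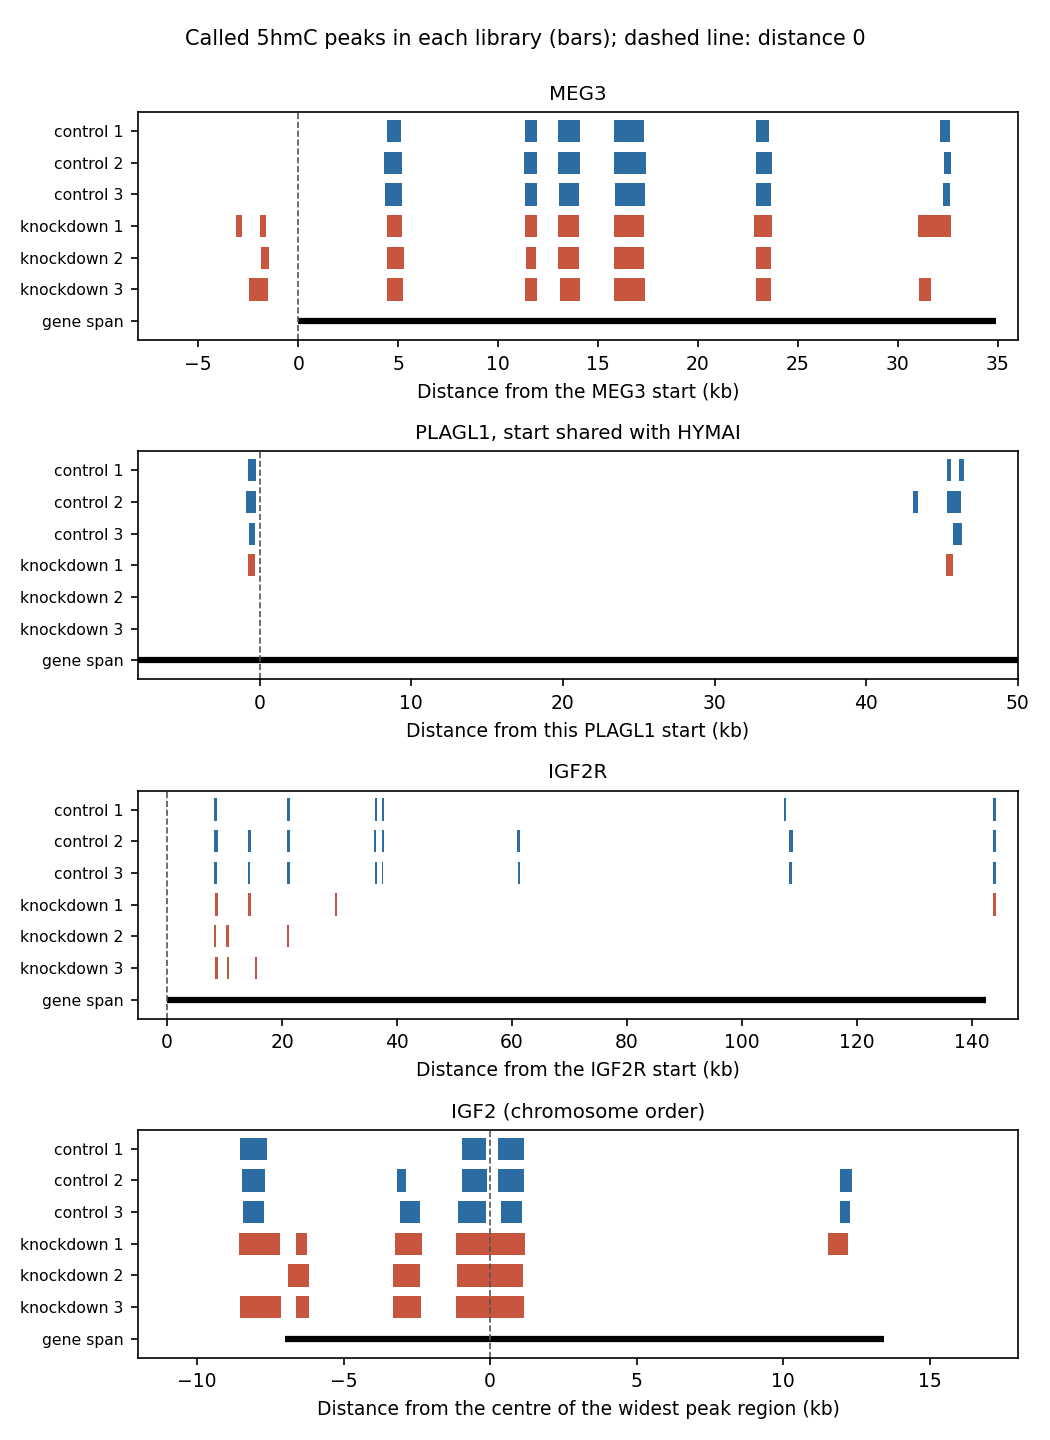
Called peaks in each of the 6 libraries around MEG3, PLAGL1 and IGF2R (x axis: distance from a RefSeq start in kb, along the gene) and IGF2 (distance from the centre of its widest peak region, in chromosome order), with the gene span in black. Knockdown-only peaks lie before the MEG3 start, while peaks of the 3 controls before the PLAGL1 start recur in 1 knockdown library and the control-only peaks inside IGF2R in none.

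The Prader-Willi/Angelman region on chromosome 15 split into a bare and a covered part. MKRN3, MAGEL2 and NDN, paternally expressed genes of the Prader-Willi interval, and SNRPN, a splicing protein gene with the imprinting centre at its start, had no peak in any of the 6 lists, although the SNRPN span is 155 kb long. IPW, a neighbour in the same interval, had none either, nor did SNURF, which lies inside the SNRPN span. SNHG14 (24823608 to 25419462), which runs across SNRPN into UBE3A, had 0.344% ± 0.374 in controls and 0.435% ± 0.0446 in knockdowns. The SNHG14 values count peaks of the UBE3A window again, and the rest of SNHG14 had none. UBE3A, the ubiquitin ligase gene of Angelman syndrome, was covered over 1.04%, 5.49% and 2.28% in controls and 3.33%, 3.43% and 3.40% in knockdowns (difference of 0.43 on the log2 scale, SE 0.36, adjusted p = 0.600 in limma). The controls spanned the knockdown values on both sides. ATP10A, a lipid flippase gene at the far end, had 6.50%, 7.29% and 6.02% in controls and 6.24%, 5.12% and 6.38% in knockdowns (difference of -0.024 on the log2 scale, SE 0.12, adjusted p = 0.943 in limma), with 22 merged regions of which 7 were in all 6 lists. Over the whole interval of 2309 kb coverage was 1.00% ± 0.181 and 0.826% ± 0.0655.

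On chromosome 20, GNAS, NNAT and BLCAP had higher values in all knockdown libraries. GNAS encodes the stimulatory G protein alpha subunit and, from other starts, neuroendocrine secretory proteins. GNAS (58839748 to 58911192) was covered over 21.3%, 22.8% and 20.8% in controls and 25.3%, 25.2% and 23.6% in knockdowns (21.7% ± 1.05 and 24.7% ± 0.966, difference of 0.30 on the log2 scale, SE 0.11, adjusted p = 0.277 in limma). Its widest region, 10429 bp from 58893611 to 58904039, was in all 6 lists, none of its 6 promoter windows had a peak, and the nearest region began 512 bp after a start. NNAT, a small membrane protein of developing neurons, lies within BLCAP, and the pair is covered by the same 3 regions. NNAT had 11.4%, 10.5% and 15.4% in controls and 18.3%, 15.9% and 19.3% in knockdowns (difference of 0.61 on the log2 scale, SE 0.20, adjusted p = 0.233 in limma). BLCAP had 6.96%, 6.40% and 9.38%, and 11.1%, 9.67% and 11.7% (difference of 0.59 on the log2 scale, SE 0.20, adjusted p = 0.249 in limma). In the region from 37519033 to 37520048, outside the NNAT span, peaks covered 585, 825 and 537 bp in controls and 923, 960 and 979 bp in knockdowns. With only peaks of −log10 q of at least 5, both genes passed the test, NNAT with 5.22% ± 1.24 and 15.5% ± 0.503 (a difference of 1.57 on the log2 scale, adjusted p = 0.0105 in limma) and BLCAP with 3.17% ± 0.754 and 9.40% ± 0.306 (1.48, adjusted p = 0.0140 in limma). In peaks per 10 kb the BLCAP difference was 0.15 (adjusted p = 0.744 in limma). Over the NNAT span alone, without flanks, the difference was -0.32 (limma adjusted p = 0.956). L3MBTL1, a chromatin compaction gene, had 2.27%, 1.66% and 1.11% in controls and 1.99%, 1.07% and 1.18% in knockdowns (difference of -0.033 on the log2 scale, SE 0.27, adjusted p = 0.965 in limma).

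PLAGL1 and IGF2R on chromosome 6 had the lower values in knockdown libraries. PLAGL1, a growth-suppressing zinc finger gene, is expressed from the paternal copy from the start it shares with the noncoding HYMAI. PLAGL1 (143940300 to 144064599) was covered over 1.19%, 1.41% and 1.09% in controls and 0.656%, 0% and 0% in knockdowns, and its mean under 1% kept it out of the test. A region from 144008517 to 144009162, 258 bp before that start, had peaks of −log10 q 14.2 to 26.3 in all 3 controls and of 10.5 in knockdown 1, and none in knockdowns 2 and 3. HYMAI was covered over 4.01%, 4.84% and 2.92% in controls and 3.32%, 0% and 0% in knockdowns (difference of -1.46 on the log2 scale, SE 0.54, adjusted p = 0.284 in limma). Its window lies inside that of PLAGL1 and holds only this region, so the HYMAI values count the same peaks again. A second PLAGL1 region (143961825 to 143962974), 413 bp before a different PLAGL1 start (143961412), also had peaks in all 3 controls and 1 knockdown. IGF2R, the receptor that clears IGF2, whose imprinting in people varies, was covered over 1.67%, 2.64% and 2.26% in controls and 1.10%, 0.741% and 0.911% in knockdowns. The groups did not overlap (2.19% ± 0.490 and 0.918% ± 0.182, difference of -0.61 on the log2 scale, SE 0.23, adjusted p = 0.289 in limma). Of its 12 merged regions, 1 was in all 6 lists and 2 were control-only, at 160005080 to 160005638 and 160006388 to 160006805. Both lie within AIRN, the noncoding RNA inside IGF2R (160003291 to 160007664), which was covered over 5.66%, 5.74% and 4.87% in controls and 2.23%, 0% and 0% in knockdowns (difference of -2.003 on the log2 scale, SE 0.43, adjusted p = 0.106 in limma). Those peaks were weak, with −log10 q between 2.52 and 5.76.

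The remaining loci, on chromosomes 7 (SGCE, PEG10, GRB10, MEST), 4 (NAP1L5), 2 (ZDBF2), 10 (INPP5F), 19 (PEG3, ZIM2) and 1 (DIRAS3), had overlapping groups or no peaks. SGCE, a sarcoglycan gene of myoclonus dystonia, and PEG10, a retrotransposon-derived gene beside it, share peaks. SGCE had 7.53%, 15.96% and 10.97% in controls and 13.8%, 10.96% and 12.5% in knockdowns (difference of 0.27 on the log2 scale, SE 0.20, adjusted p = 0.557 in limma). PEG10 had 2.83%, 6.99% and 3.51%, and 5.28%, 5.19% and 7.89% (0.56, SE 0.26, adjusted p = 0.367 in limma). In both genes control 2, the list with the most peaks, was the highest control. The same held at NAP1L5, a nucleosome assembly protein gene, with 8.99%, 19.1% and 12.5% in controls and 23.2%, 14.1% and 13.1% in knockdowns (difference of 0.43 on the log2 scale, SE 0.25, adjusted p = 0.457 in limma), and at ZDBF2, a zinc finger gene, with 1.86%, 4.52% and 2.82%, and 4.25%, 4.49% and 3.28% (0.46, SE 0.24, adjusted p = 0.417 in limma). With equal numbers of peaks per list control 2 was still the highest control, at 15.1% in SGCE, 5.51% in PEG10, 19.1% in NAP1L5 and 4.52% in ZDBF2. A control-only region reached into the edge of the NAP1L5 window (chromosome 4, 88702768 to 88703225, −log10 q 11.02 to 14.6). INPP5F, a phosphoinositide phosphatase gene, had 7.86%, 9.45% and 7.94% in controls and 9.03%, 7.26% and 9.14% in knockdowns (difference of 0.12 on the log2 scale, SE 0.11, adjusted p = 0.647 in limma), and a region in all 6 lists ended 591 bp before its inner start. GRB10, an insulin receptor adaptor gene, had 4.23%, 2.96% and 3.01%, and 3.01%, 3.23% and 3.79% (0.10, SE 0.22, adjusted p = 0.850 in limma). MEST, a gene for a hydrolase-like protein, had no peak in the controls and 1.17%, 0% and 2.41% in knockdowns. PEG3 and ZIM2, zinc finger genes with a shared start, and DIRAS3, a tumour suppressor GTPase gene, had none.

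**Figure D4:**
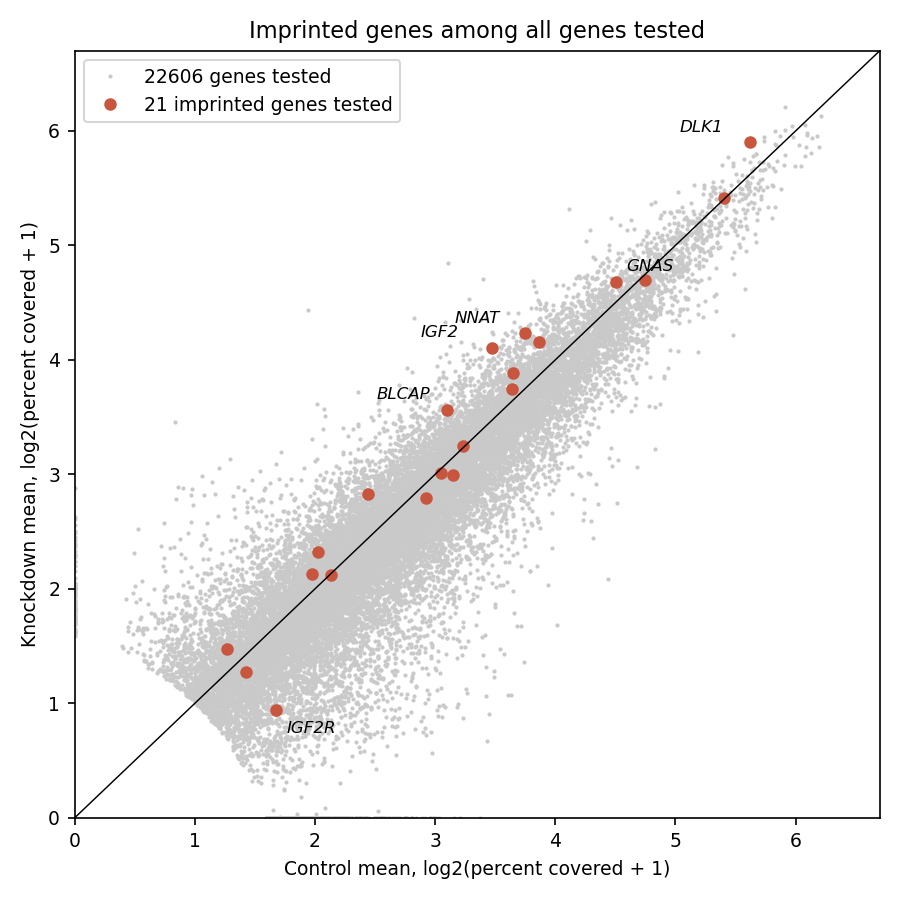
Mean coverage in control (x axis) and knockdown libraries (y axis), both as log2(percent covered + 1) without centring, for 22606 genes tested (grey) and the 21 imprinted genes among them (red), with the line of equality. The 6 genes named are those whose groups did not overlap, with IGF2R the only one of them below the line.

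Among single regions, imprinted genes were near the genome's background. Their windows held 179 merged regions, of which 74 (41.3%) had a peak in all 6 lists, 3 were control-only and 2 knockdown-only. Over all 200818 merged regions, 35.5% were in all 6 lists, 1.97% control-only and 1.06% knockdown-only. The 5 group-specific regions are those named at IGF2R (2), NAP1L5, IGF2 and MEG3. At the stricter threshold of −log10 q 5, and with equal numbers of peaks per list, the NAP1L5 region alone of these 5 was still group-specific. The IGF2 region then had a peak in 1 knockdown list under either setting, and the MEG3 region in 1 and 2. A region at NNAT and BLCAP (37516813 to 37517919) was knockdown-only under both settings, and one at GRB10 (50656414 to 50657023) at the stricter threshold, though neither was with all peaks.

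Of the listed genes that lay down, maintain or read imprints, none that was tested passed, and no other listed imprinted or neighbouring gene did. ZFP57, TRIM28 and DNMT3L, without a peak in any library, were among those that could not be tested. Of 34 imprint maintenance and reading genes, 24 were tested and none was called (0 of 24 at an unadjusted p under 0.05 in limma, lowest limma adjusted p 0.358). Knockdown values lay below all controls at 3 of the 24, where 18.8% of all genes tested did. These were the methyltransferase genes DNMT3A (23.6% ± 2.62 and 21.2% ± 0.244) and DNMT3B (4.90% ± 0.526 and 3.58% ± 0.409) and the pluripotency gene ZFP42 (2.47% ± 0.176 and 1.94% ± 0.136), and the centred differences were -0.028, -0.25 and -0.13 (adjusted p = 0.939, 0.531 and 0.790 in limma). Of 61 other imprinted and neighbouring genes that matched RefSeq, 40 were tested, none was called, and 3 were higher and 4 lower at an unadjusted p under 0.05 in limma (6.68% and 8.66% of all genes). Of the 40, 1 lay above and 10 below all controls (3.95% and 18.8% of all genes), and the median log2 difference was -0.048.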

How the data were processed

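The 6 deposited peak lists gave, per peak, a position, a score, a fold enrichment and −log10 p- and q-values, all the authors' own, used only to describe, filter or rank peaks within a list. The submitters' processing notes name hg38 as build and MACS2 2.2.6, Bowtie2 2.4.4 and SAMtools as tools, without their roles. Each sample has its own list, per the labels. The input library was not used here. Whether it served in peak calling is not given in the sources used here. The smallest −log10 q was 1.30 or 1.31 in each deposited list.

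From positions, the percent of each RefSeq gene (GRCh38.p14) with 5 kb either side was computed, so neighbours can share peaks. Values were tested as log2(percent + 1), which understates changes of sparse genes, after subtracting each library's median deviation (limma 3.58.1 with a variance trend, R 4.3.3, Benjamini-Hochberg over all genes, called under 0.05). The subtraction removed a shift of -0.11 between knockdown and control libraries. Uncentred, 13.4% of called genes were higher in place of 28.4%. Merged regions joined overlapping or adjoining peaks of the 6 lists. Exon and intron positions were not used here. A gene without a called peak may still carry 5hmC. Coverage and the test were tested on simulated data. Python 3.11.15, numpy 2.4.6 and pandas 2.3.3 were used.

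The genes and lists were chosen with earlier results of these data known. All 30 imprinted genes are named. Library values are given at least for those called or with groups that did not overlap, the most covered of each locus and the 2 highest and 2 lowest in coverage among those with a peak. Listed non-members are given where called or not overlapping, except for a gene that is not reported here. Of the fixed lists, 3 of 64 other imprinted names did not match. Alternatives were pseudocount, low-coverage filter, peak threshold and number, centring, flank, measure, gene types, replicate block and each library left out.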

Additional observations from a re-analysis of the deposited data

How the results depend on the processing

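No imprinted gene was called under any alternative except NNAT and BLCAP (2 genes) with peaks of −log10 q of at least 5. Over all 22606 genes, main counts were 46 higher and 116 lower. They were 9 and 25 at a pseudocount of 0.25, 76 and 214 without the filter, 77 and 273 at the stricter threshold, 0 and 2 with 10 kb flanks and 71 and 247 in peaks per 10 kb. Higher calls were 77 with equal numbers of peaks and 24 with protein-coding genes only, and lower calls 259 without centring and 189 without flanks. Leaving out each library gave 0 to 6 higher and 0 to 28 lower calls. The same-numbered samples did not deviate together (correlations -0.13, -0.07 and 0.03), and the replicate block gave 0 higher and 0 lower calls (2892 genes at an unadjusted p under 0.05 in limma, against 3468 without it).

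The median log2 difference of the imprinted genes, 0.27, was 0.32 and 0.19 at pseudocounts of 0.25 and 4, 0.31 at the stricter threshold, 0.16 without centring, 0.21 without flanks, 0.14 with 10 kb flanks, 0.040 in peaks per 10 kb and 0.22 to 0.32 with a library left out. The cause was not tested. Control-only regions (3) fell to 1 at the stricter threshold and with equal peaks and numbered 3 to 6 with a library left out. Knockdown-only regions (2) fell to 1 with equal peaks and where each peak list had to cover 50% of the region, and numbered 2 to 5. At the stricter threshold there were again 2, at GRB10 and at NNAT and BLCAP, and not those at IGF2 and MEG3. The difference in summed coverage (0.305 points) ran from 0.130 to 0.624 points with a library left out.

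Of 369 gene-level values under alternatives, 347 kept direction and side of the threshold, and 20 turned sign. None of the 20 was called. Without centring, KCNQ1OT1 turned to -0.035, CDKN1C to -0.057 and GRB10 to -0.0094. In peaks per 10 kb, IGF2 turned to -0.024, KCNQ1OT1 to -0.033 and CDKN1C to -0.089. Without flanks, CDKN1C turned to -0.11 and NNAT to -0.32. L3MBTL1 turned to 0.0058 at pseudocount 4 and 0.23 with quantile normalization, and ATP10A to 0.010 at the stricter threshold. With a library left out, differences that turned ran from -0.36 (without control 2) to 0.83 at H19, -1.25 to 0.61 (without knockdown 1) at PHLDA2, -0.15 to 0.15 (without control 1) at L3MBTL1, and down to -0.025, -0.048 and -0.051 without control 2 at KCNQ1OT1, CDKN1C and GRB10. With a library left out, an arm of 2 shares the spread of the other. Depth could not be set against these values, as no read totals were used.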

Other observations

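Around the imprinted genes, several neighbours had values that did not overlap between the groups, and none passed the test. Of all genes tested, 18.8% lay below and 3.95% above every control. DDC, the dopamine synthesis gene beside GRB10, was covered over 20.4%, 21.9% and 19.4% in controls and 25.8%, 25.5% and 25.6% in knockdowns (difference of 0.42 on the log2 scale, SE 0.10, adjusted p = 0.130 in limma). DLX5, a homeobox gene on the same chromosome, had 26.6%, 26.6% and 21.5%, and 14.2%, 17.0% and 14.4% (-0.56, SE 0.15, adjusted p = 0.175 in limma). DIO3, the thyroid hormone deiodinase gene at the far end of the DLK1/MEG3 domain, had 7.82%, 7.02% and 3.71%, and 3.24%, 2.70% and 3.34% (-0.65, SE 0.24, adjusted p = 0.279 in limma). BEGAIN, a postsynaptic density gene on the other side of DLK1, had 52.1% ± 4.30 and 43.8% ± 0.954, opposite in direction to DLK1 (SD over 3 libraries, difference of -0.13 on the log2 scale, SE 0.12, adjusted p = 0.637 in limma). GNAS-AS1, the antisense RNA of the GNAS locus, had 2.83%, 2.41% and 2.22% in controls and 2.77%, 5.74% and 5.44% in knockdowns (0.77, SE 0.30, adjusted p = 0.303 in limma), with knockdown 1 among the controls. KCNQ1, the potassium channel gene that holds KCNQ1OT1, had 13.2% ± 0.582 and 11.6% ± 0.886, and its centred difference was -0.061 (SE 0.13, limma adjusted p = 0.853). OSBPL5 had 14.8% ± 1.98 and 11.3% ± 1.56, HM13 7.20% ± 1.22 and 4.54% ± 0.268, ANO1 4.14% ± 0.654 and 3.42% ± 0.0826, GABRA5 3.21% ± 0.0780 and 2.25% ± 0.208, and NAP1L4 2.01% ± 0.929 and 0.762% ± 0.663, all with knockdown values below every control.

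Of 12 noradrenergic markers tested, 3 lay below and 1 above every control, and of 8 mesenchymal ones 1 and 1. Over all genes tested, 18.8% lay below and 3.95% above. The median log2 difference was 0.20 for the noradrenergic and -0.012 for the mesenchymal markers. Below every control were PHOX2A (29.2% ± 4.22 and 23.3% ± 2.53, centred difference of -0.19, adjusted p = 0.656 in limma) and SLC6A2 (14.7% ± 1.29 and 8.47% ± 1.76, -0.63, adjusted p = 0.0976 in limma). The mesenchymal FOSL1 (4.82% ± 0.809 and 2.10% ± 0.407) and a gene that is not reported here also lay below. Above were CHGA, given earlier, and the mesenchymal FN1 (2.99% ± 1.45 and 4.86% ± 0.235).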
